A study of Mus musculus with 9 samples.

Results

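The heat shock chaperone genes and the gene of their regulator were followed through RNA-seq of HC11 cells, a mouse mammary epithelial cell line, with and without exposure to red light. The members, taken by gene name, are the chaperone genes Hsp90aa1, Hsp90ab1, Hspa8, Hspa4, Hsph1, Dnaja1, Hspd1, Hspe1 and Hspb1 and the regulator gene Hsf1. They make up 10 of the 54532 genes in the count table, and 9 of the 10 passed the filter on low counts; Hspb1 did not. Each of 3 groups had 3 libraries: untreated cells (Ctrl), cells labelled with a light dose of 10 J/cm2 (EpPT1) and cells labelled with 20 J/cm2 (EpPT2). The wavelength was 660 nm. The treatment protocol gives 0.5 and 1 J/cm2 at 10 mW instead, and the descriptions name the source as a laser in one place and an LED in another, so the groups are called by their names here. All libraries came from 1 cell line, given the strain C57BL/6 in the labels and grown in serum-containing DMEM. No source used here gives the interval between light and lysis. Whether the libraries within a group are separate cultures is likewise unknown, so each p-value measures only the spread among these libraries, which may be technical.

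Heat shock proteins are chaperones: they hold unfolded proteins in solution, help them fold, or pass them on for degradation. In resting cells the transcription factor HSF1, encoded by Hsf1, is kept inactive by chaperones, and when unfolded proteins draw the chaperones away it forms trimers, binds repeats of the bases GAA and TTC called heat shock elements, and raises chaperone transcription. Some members, such as Hspa8 and Hsp90ab1, are made at high levels in unstressed cells, while others, such as Hsph1, Hspb1 and Hsp90aa1, are known as stress-inducible.

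The heat shock elements of these genes are shown because they are the sequences through which HSF1 would act on the set. RefSeq promoter windows (build GRCm38.p6, 250 bases before to 50 after a transcription start) were matched for 6 of the 10 members, in 10 windows. Both strands were searched for the 2-unit elements GAANNTTC and TTCNNGAA, each of which is its own reverse complement, and for the 3-unit elements GAANNTTCNNGAA and TTCNNGAANNTTC, which contain a 2-unit element. A 2-unit element was present for 5 of the 6 members and a 3-unit element for 3 of them, Hspe1, Hspd1 and Hsph1. Of all 32851 windows of the same length, 15.1% held a 2-unit and 0.603% a 3-unit element. These shares are per window, while a member was counted if any of its windows held a match. The counts and the shares are therefore not directly comparable. No match was found in the window of Hspa4. Hspe1 and Hspd1 lie head to head on chromosome 1 and share 1 element of 4 units, which starts 89 bases before the RefSeq start of Hspe1 (55088148). Hsph1 has 1 element before and 1 after its RefSeq starts (149636336 and 149636315). The gene coordinates given further below differ from these starts. Those of Hsph1 include both of its elements, and those of Hspd1 include the shared element. In the sequences below, written 5′ to 3′ on the strand of the gene, capitals mark the match.
Hspe1 (chr1:55088053-55088082, plus strand): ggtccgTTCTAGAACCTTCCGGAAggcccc
Hspd1 (the same bases, minus strand): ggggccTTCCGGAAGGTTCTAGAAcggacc
Hsph1 upstream (chr5:149636351-149636380, minus strand): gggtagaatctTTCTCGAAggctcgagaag
Hsph1 downstream (chr5:149636279-149636308, minus strand): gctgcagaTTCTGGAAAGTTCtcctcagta
Hspb1 distal (chr5:135887791-135887820, plus strand): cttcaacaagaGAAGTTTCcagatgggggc
Hspb1 proximal (chr5:135887811-135887840, plus strand): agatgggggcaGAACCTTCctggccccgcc
Dnaja1 (chr4:40722333-40722362, plus strand): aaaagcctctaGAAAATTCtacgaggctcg
A match describes these letters only; binding was not measured.

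The libraries held 14549787 to 17228929 counts, and 14471 genes were tested. They differed in mitochondrial share and GC trend. Genes of the mitochondrial genome took 6.06% to 7.48% of counts in 4 libraries (Ctrl 3, EpPT1 3, EpPT2 2 and EpPT2 3) and 2.74% to 3.62% in the other 5, so Ctrl and EpPT1 had 1 such library each and EpPT2 had 2. The trend of log2 expression with gene GC content also differed, from -0.49 per 10 percentage points of GC in Ctrl 1 to 0.37 in EpPT1 3; it was below 0 in all 3 Ctrl libraries and above 0 in all 3 EpPT2 libraries, so it went with the groups in that comparison. Of the 5 luminal epithelial markers, Krt8 (559 to 836 CPM, counts relative to library size after TMM scaling) and Krt18 (760 to 1127 CPM) were high, Krt19 and Epcam were present, and Cdh1, which encodes E-cadherin, stayed at or below 0.777 CPM. The 6 fibroblast markers summed to 1322 to 2972 CPM in Ctrl, 773 to 2109 in EpPT1 and 790 to 2067 in EpPT2 (unscaled), nearly all from Dcn; the sums of the 5 luminal markers were 1656 to 2411, 1979 to 2196 and 1890 to 2060. Basal markers (4 genes, 4.79 to 23.2 CPM), fat cell markers (4 genes, 240 to 412 CPM, nearly all Lpl) and blood and immune markers (5 genes, 9.89 to 97.2 CPM, mostly Cd68) were also summed; Plin1 and Hbb-bs had at most 1 count in any library. The part of these differences in the results below was not tested except where a value is given. In bulk RNA, fewer cells with a transcript and less of it per cell cannot be told apart.

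The 2 cytosolic Hsp90 genes were among the most abundant members. HSP90 takes late folding intermediates of kinases and hormone receptors through an ATP-driven cycle, and binds HSF1. Hsp90aa1, the stress-inducible form (chromosome 12, 110690605 to 110702728), was at 2796, 1545 and 1591 CPM in Ctrl 1 to 3, at 1934, 1672 and 774 CPM in EpPT1 1 to 3, and at 1620.5, 820.5 and 870.3 CPM in EpPT2 1 to 3. Ctrl 1 was the highest library, the lowest 3 were exposed libraries with over 5% mitochondrial counts, and the groups overlapped. Its means were 1977 ± 709.7 CPM in Ctrl, 1460 ± 608 CPM in EpPT1 and 1104 ± 448 CPM in EpPT2 (SD, n = 3). The log2 fold change was -0.84 (SE 0.40) in EpPT2 against Ctrl, a level 1.79-fold lower, with an adjusted p of 0.416 by edgeR's quasi-likelihood test with Benjamini-Hochberg adjustment. Without Ctrl 1 the value was -0.50, and without EpPT2 1 it was -1.23.

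Hsp90ab1, the constitutive form (chromosome 17, 45567775 to 45573271), was much steadier. Its levels were 2485, 2242 and 2294 CPM in Ctrl, 2489, 2352 and 1764 CPM in EpPT1, then 2369, 1818 and 1855 CPM in EpPT2. The highest library exceeded the lowest 1.41-fold, against 3.61-fold for Hsp90aa1. The lowest 3 were again EpPT1 3, EpPT2 2 and EpPT2 3, while Ctrl 3 lay among the libraries under 5%. The log2 fold change in EpPT2 against Ctrl was -0.22 (SE 0.21; edgeR adjusted p 0.659), and -0.35 without EpPT2 1. Per length, the ratio of Hsp90aa1 to Hsp90ab1 was 0.859, 0.526 and 0.529 for the Ctrl libraries, 0.593, 0.542 and 0.335 for EpPT1, then 0.522, 0.344 and 0.358 for EpPT2. Per length, the inducible form was thus below the constitutive form in each of the 9 libraries. In CPM it was above it in Ctrl 1 (2796 against 2485), so the order there depends on the deposited lengths of 3931 and 2999 bases.

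Among the Hsp70 class, Hspa8 encodes the constitutive HSC70, which binds short hydrophobic stretches of nascent and unfolded proteins (chromosome 9, 40800984 to 40810087). It was at 3600.3, 1767 and 3699 CPM in Ctrl, at 2853, 2889.8 and 1856 CPM in EpPT1 and at 2844, 1892 and 1948.5 CPM in EpPT2. Ctrl 2 was the lowest of all 9 libraries and the other 2 Ctrl libraries were the highest, so the Ctrl mean of 3022 ± 1088 CPM (SD, n = 3) had the widest spread of the 3 groups. EpPT1 averaged 2533 ± 587 CPM and EpPT2 2228 ± 534 CPM. The fitted level in EpPT2 was 1.36-fold lower than in Ctrl (log2 fold change -0.44, SE 0.32, edgeR adjusted p 0.556). The log2 fold change was -0.29 without Ctrl 1, -0.71 without Ctrl 2 and -0.27 without Ctrl 3.

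Hspa4 and Hsph1 encode HSP110 proteins, which act as nucleotide exchange factors that release ADP from HSP70. Hspa4 (chromosome 11, 53259814 to 53300457) was at 541, 465 and 585 CPM in Ctrl, at 553, 428 and 414 CPM in EpPT1 and at 419, 411 and 399.6 CPM in EpPT2. All 3 EpPT2 libraries lay below all 3 Ctrl libraries, and the EpPT2 mean had a small spread (409.8 ± 9.74 CPM, SD, n = 3) beside Ctrl (530.3 ± 60.9 CPM). The log2 fold change was -0.37 (SE 0.20), or 1.29-fold lower, with an edgeR adjusted p of 0.452. Hspa4 was the 1 member of 9 whose EpPT2 and Ctrl libraries did not overlap, as was the case for 23.2% of all genes tested. No member separated in EpPT1 against Ctrl (5.26% of genes) or EpPT2 against EpPT1 (2.45%).

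Hsph1 (chromosome 5, 149614287 to 149636376) varied most of the 9 tested members. It was at 267, 164 and 101 CPM in Ctrl, at 225, 202 and 64.3 CPM in EpPT1 and at 171, 64.2 and 70.8 CPM in EpPT2, a 4.16-fold range. Each group held both high and low libraries, and the 4 lowest were the 4 with over 5% mitochondrial counts. Group means were 177 ± 84.2, 164 ± 87.0 and 102 ± 60.0 CPM (SD, n = 3). The log2 fold change in EpPT2 against Ctrl was -0.79 (SE 0.54; edgeR adjusted p 0.528); it was -0.37 without Ctrl 1 and -1.40 without EpPT2 1.

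Dnaja1 encodes a J-domain protein, a partner that stimulates the ATPase of HSP70 (chromosome 4, 40722150 to 40737149). Its levels were 350.0, 271 and 350.2 CPM in Ctrl, 327, 385 and 255 CPM in EpPT1 and 354, 270.1 and 253 CPM in EpPT2. The groups overlapped widely, with means of 324 ± 45.4, 322 ± 65.0 and 293 ± 54.1 CPM (SD, n = 3). Its log2 fold change in EpPT2 against Ctrl was -0.15 (SE 0.23); leaving out 1 library at a time gave -0.31 (without EpPT2 1) to -0.05 (without EpPT2 3), and it turned to 0.21 when the GC trend of each library was removed; at 41.2% GC its transcript is the most GC-poor of the members, against a median of 49.4% over all tested genes. Its 3′ part overlaps 608 bases of Smu1 on the opposite strand, a gene with 1645 to 3407 counts, and no source used here gives the strand setting of the counting, so reads could have been assigned to either gene.

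Hspd1 and Hspe1 encode HSP60 and HSP10, the barrel and the lid of the mitochondrial chaperonin. Hspd1 (chromosome 1, 55077835 to 55088243) was at 1288, 945 and 672 CPM in Ctrl, at 1292, 1037 and 586 CPM in EpPT1 and at 1009.5, 613 and 645 CPM in EpPT2. Hspe1 (chromosome 1, 55088132 to 55091307) was at 382, 289.8 and 224 CPM in Ctrl, at 334, 316 and 154 CPM in EpPT1 and at 312, 152 and 150.4 CPM in EpPT2. For both genes the 4 libraries with over 5% mitochondrial counts were the lowest 4, whatever their group. The root mean square difference of their centred log2 levels was 0.17, and the ratio of Hspd1 to Hspe1 per length stayed between 1.67 and 2.39. Log2 fold changes in EpPT2 against Ctrl were -0.36 (SE 0.35) for Hspd1 and -0.54 (SE 0.38) for Hspe1, with edgeR adjusted p of 0.661 and 0.542. For Hspd1 the value was -0.10 without Ctrl 1, -0.56 without Ctrl 3, -0.63 without EpPT2 1 and -0.23 without EpPT2 2. For Hspe1 it was -0.33 without Ctrl 1 and -0.99 without EpPT2 1. The 2 genes share 112 bases on opposite strands, and the pseudogene Hspd1-ps3 carried 118 to 1246 counts, or 3.64% of the Hspd1 total, so a small part of the reads may be assigned to the wrong copy.

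Hspb1 encodes HSP27, a small heat shock protein that holds unfolding proteins without using ATP (chromosome 5, 135887919 to 135889563). It was close to undetected, with 0, 2 and 1 counts in Ctrl, 1, 1 and 11 counts in EpPT1 and 1, 11 and 7 counts in EpPT2. The highest level was 0.762 CPM, and 3 counts, the limit that a count of 0 allows, correspond to 0.189 CPM in Ctrl 1. The 3 libraries with more than 2 counts were exposed libraries with over 5% mitochondrial counts. The group sums of 3, 13 and 19 counts were too low for the filter, so Hspb1 was left out of the fit of all 9 libraries. Without the filter its edgeR p in EpPT2 against Ctrl was 0.0431 unadjusted and 0.515 adjusted, and in EpPT1 against Ctrl 0.12 and 0.888. In EpPT2 against Ctrl that fit had an unadjusted p under 0.05 for 4 of 10 members (also Hsp90aa1, Hsph1 and Hsf1). The same was true of 2624 of 28724 genes. Fitted fold changes of Hspb1 at such counts depend on the model's prior count and are not given.

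Hsf1, the gene of the regulator (chromosome 15, 76477422 to 76501913), had a higher mean in EpPT2 than in Ctrl, where each tested chaperone had a lower one. Its levels were 33.5, 29.1 and 53.5 CPM in Ctrl, 31.7, 45.7 and 75.2 CPM in EpPT1 and 45.3, 66.5 and 70.6 CPM in EpPT2. The 4 highest libraries were the 4 with over 5% mitochondrial counts, and the groups overlapped. Means were 38.7 ± 13.0, 50.9 ± 22.2 and 60.8 ± 13.6 CPM (SD, n = 3), and the level in EpPT2 was fitted 1.57-fold higher than in Ctrl (log2 fold change 0.65, SE 0.36, edgeR adjusted p 0.456). HSF1 activity is controlled mainly on the protein, by trimer formation and phosphorylation, which RNA counts do not measure.

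**Figure D1:**
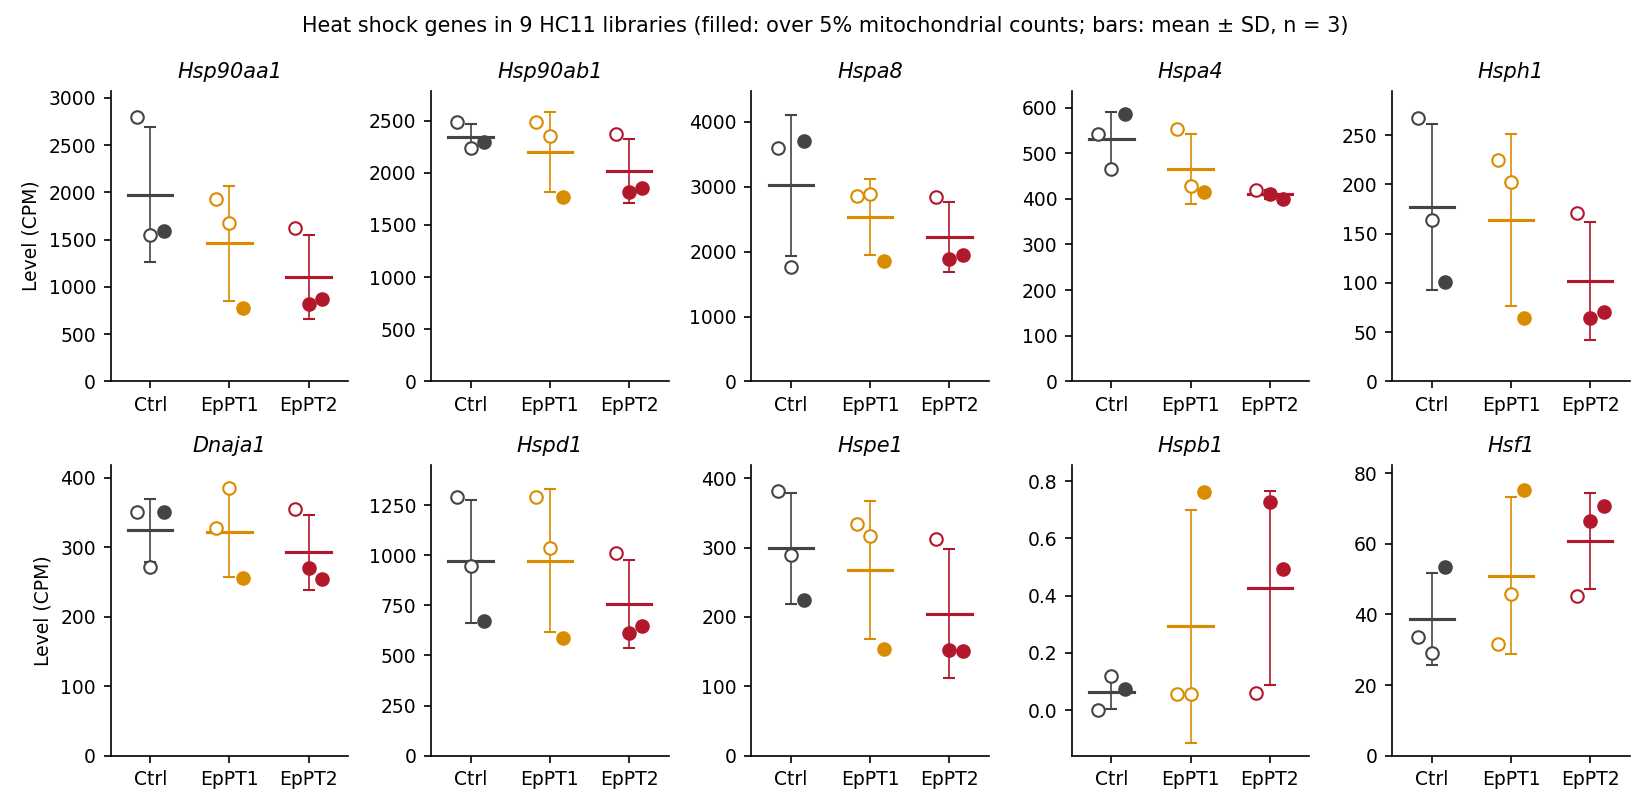
CPM of the 10 genes in each library by group (filled points: over 5% mitochondrial counts; lines and bars: mean ± SD, n = 3). Filled points lie lowest for Hsph1, Hspd1 and Hspe1 and highest for Hsf1, Hspa4 has its 3 EpPT2 points below its 3 Ctrl points, and Hspb1 stays below 1 CPM.

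Divided by gene length, the levels spanned the set from Hsp90ab1 (729 ± 97.2 CPM per kb, SD, n = 9) through Hspa8 (603 ± 176), Hsp90aa1 (385 ± 164), Hspd1 (340.2 ± 107), Hspe1 (174 ± 60.4), Hspa4 (84.7 ± 13.0), Dnaja1 (36.3 ± 5.84), Hsph1 (20.3 ± 10.4) and Hsf1 (7.06 ± 2.45) to Hspb1 (0.254 ± 0.300). Hsp90ab1 was above Hspa8 in 7 of 9 libraries, Hsp90aa1 above Hspd1 in 6 and Hsph1 above Hsf1 in 6, so these neighbours were not separated. Every other neighbour in the order was higher in 9 of 9 libraries. The order rests on the deposited gene lengths: in CPM the mean of Hspa8 (2594) was above that of Hsp90ab1 (2185). The 10 genes together took 0.802% to 1.19% of all counts in Ctrl, 0.584% to 1.01% in EpPT1 and 0.610% to 0.950% in EpPT2.

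**Figure D2:**
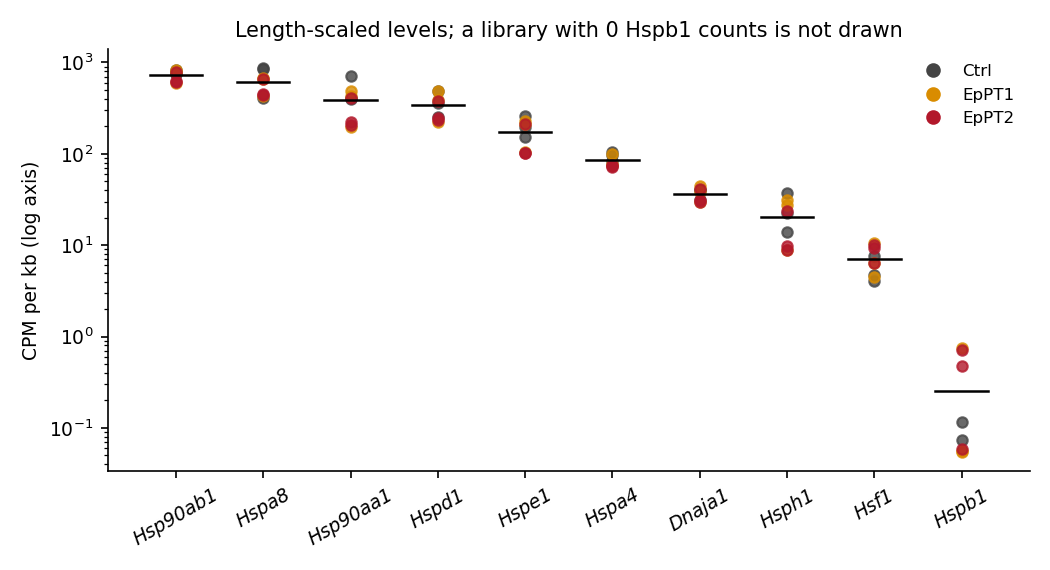
CPM per kb of gene length on a log axis for the 10 genes (points: the 9 libraries, coloured by group; lines: their mean). Hsp90ab1 and Hspa8 lead, and Hspb1 lies lowest, with its Ctrl 1 library at 0 not drawn.

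The comparison of exposed with untreated cells asked whether light changed these transcripts. The adjusted p reached 0.05 for 0 of the 9 tested members in each of the 3 comparisons between groups, as for 0% of all 14471 genes. The unadjusted edgeR p was under 0.05 for 0 of 9 members each time, against 3.93% of all genes for EpPT1 against Ctrl, 12.2% for EpPT2 against Ctrl and 0.214% between the exposed groups. DESeq2 called 0 members, and 1, 62 and 0 of all genes in the same order. Its unadjusted p in EpPT2 against Ctrl was under 0.05 for 1 of 9 members (Hsp90aa1) and for 2163 of 14471 genes. In EpPT1 against Ctrl, fitted log2 fold changes ran from -0.44 for Hsp90aa1 to 0.39 for Hsf1, with adjusted p of at least 0.991. In EpPT2 against Ctrl, all 8 tested chaperones were fitted below 0 with a median of -0.41, and Hsf1 above 0; over all genes the median was -0.03, with 52.1% below 0. In EpPT1 against Ctrl, 7 of the 8 were below 0 with a median of -0.13 (all genes -0.02, with 52.0% below 0). EpPT2 against EpPT1 gave 8 of 8 below 0 with a median of -0.27 (all genes -0.01, with 51.7% below 0). The 3 comparisons share libraries and the members vary together, so these counts are descriptions.

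**Figure D3:**
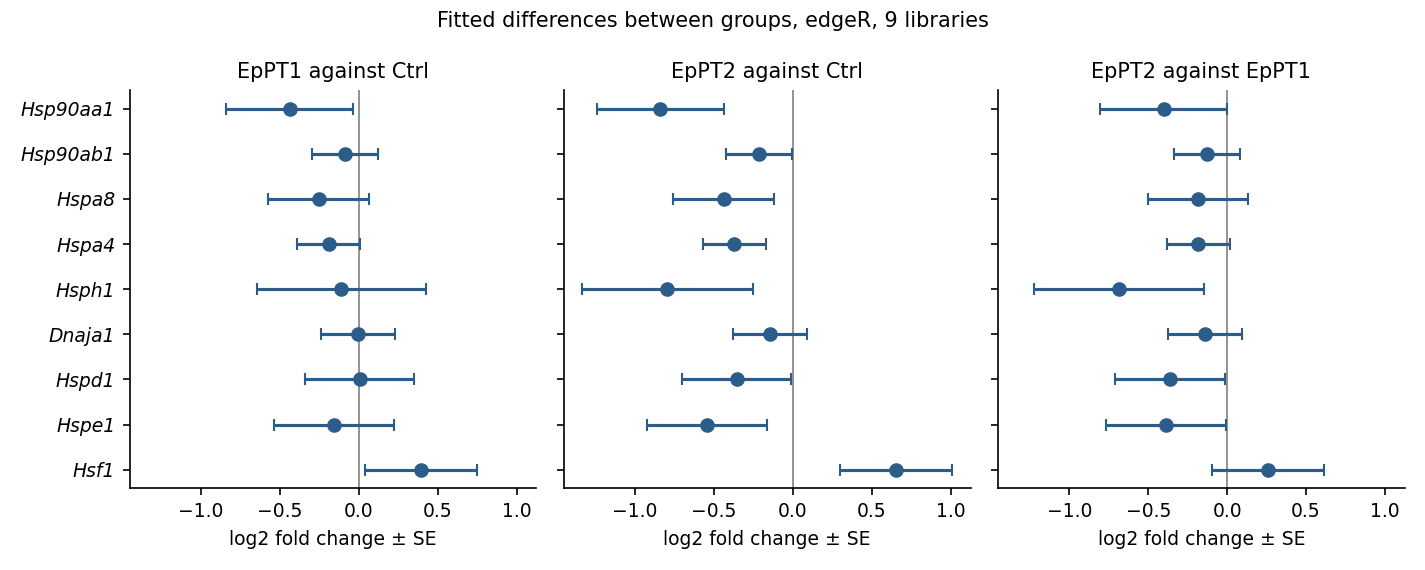
Fitted log2 fold change ± SE of the 9 tested members (edgeR, 9 libraries) for each exposed group against Ctrl and for EpPT2 against EpPT1. In EpPT2 against Ctrl the 8 chaperones lie left of 0 and Hsf1 right of it, and no adjusted p was below 0.416.

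Several members separated by the mitochondrial share of the library. All 4 libraries over 5% were below all 5 others for Hsph1 (64.2 to 101 against 164 to 267 CPM), Hspd1 (586 to 672 against 945 to 1292 CPM) and Hspe1 (150.4 to 224 against 289.8 to 382 CPM), as for 18.0% of all genes. They were all above the others for Hsf1 (53.5 to 75.2 against 29.1 to 45.7 CPM), as for 16.5% of genes. Hsp90aa1, Hsp90ab1, Hspa8, Hspa4 and Dnaja1 overlapped between these classes of library. Among the 4 libraries over 5%, Ctrl 3 was above the 3 exposed ones for all 8 tested chaperones, a pattern that 39.6% of all genes had. It exceeded the highest exposed one 1.90-fold for Hspa8, 1.83-fold for Hsp90aa1, 1.46-fold for Hspe1, 1.42-fold for Hsph1, 1.41-fold for Hspa4, 1.30-fold for Dnaja1, 1.24-fold for Hsp90ab1 and 1.04-fold for Hspd1. For Hsf1, Ctrl 3 was below the 3 exposed ones, at 0.711 times the highest. Ctrl 3 also held 4223 CPM of Hspa5, the HSP70 of the endoplasmic reticulum, against 643 to 1592 CPM in the other 8 libraries.

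**Figure D4:**
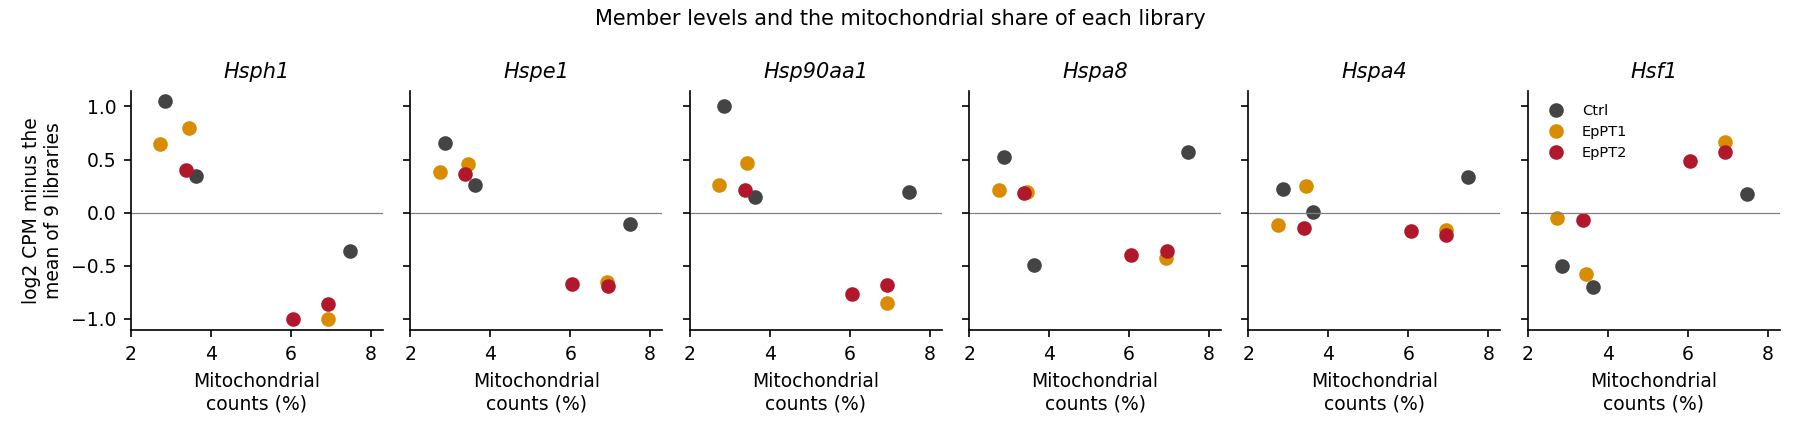
Log2 CPM minus the mean of the 9 libraries against the percentage of counts on mitochondrial genes for 6 members (points: libraries, coloured by group). Hsph1 and Hspe1 fall into a high set of 5 and a low set of 4 libraries, Hsf1 into the reverse, and in Hspa8 and Hspa4 the Ctrl library over 5% lies with the high ones.

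Separate fits of each class differed in sign in EpPT2 against Ctrl for Hspa8, Hsp90ab1 and Dnaja1, and had the same sign for the other tested members. In a fit of the 5 libraries under 5%, where EpPT2 is EpPT2 1 alone and its spread is assumed to equal that of the others, log2 fold changes in EpPT2 against Ctrl were -0.40 for Hsp90aa1, -0.31 for Hsph1, -0.25 for Hspa4, -0.13 for Hspd1 and -0.09 for Hspe1. They were above 0 for Hspa8 (0.10), Hsp90ab1 (0.02), Dnaja1 (0.21) and Hsf1 (0.55). A fit of the 4 libraries over 5% called 8 of the 10 members in EpPT1 against Ctrl and in EpPT2 against Ctrl, including Hspa8 at -0.93 and Hsp90aa1 at -0.90 in EpPT2; Hspd1 and Hspb1 were not called. That fit has 1 residual degree of freedom, takes its spread from EpPT2 2 and EpPT2 3 alone, rests on Ctrl 3 as the only control, and called 41.5% and 43.2% of all 15086 genes it tested. With the mitochondrial share as a covariate over all 9 libraries, 0 members and 0 of all 14471 genes were called. The lowest edgeR adjusted p of a member in EpPT2 against Ctrl was 0.116. The unadjusted edgeR p in that comparison was under 0.05 for 4 of 9 members (Hsp90aa1, Hspe1, Hsph1 and Hsf1) and for 3533 of 14471 genes. In EpPT1 against Ctrl it was so for 1 member (Hsp90aa1) and 1974 genes. Removing the GC trend instead gave a lowest adjusted p of 0.835.

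**Figure D5:**
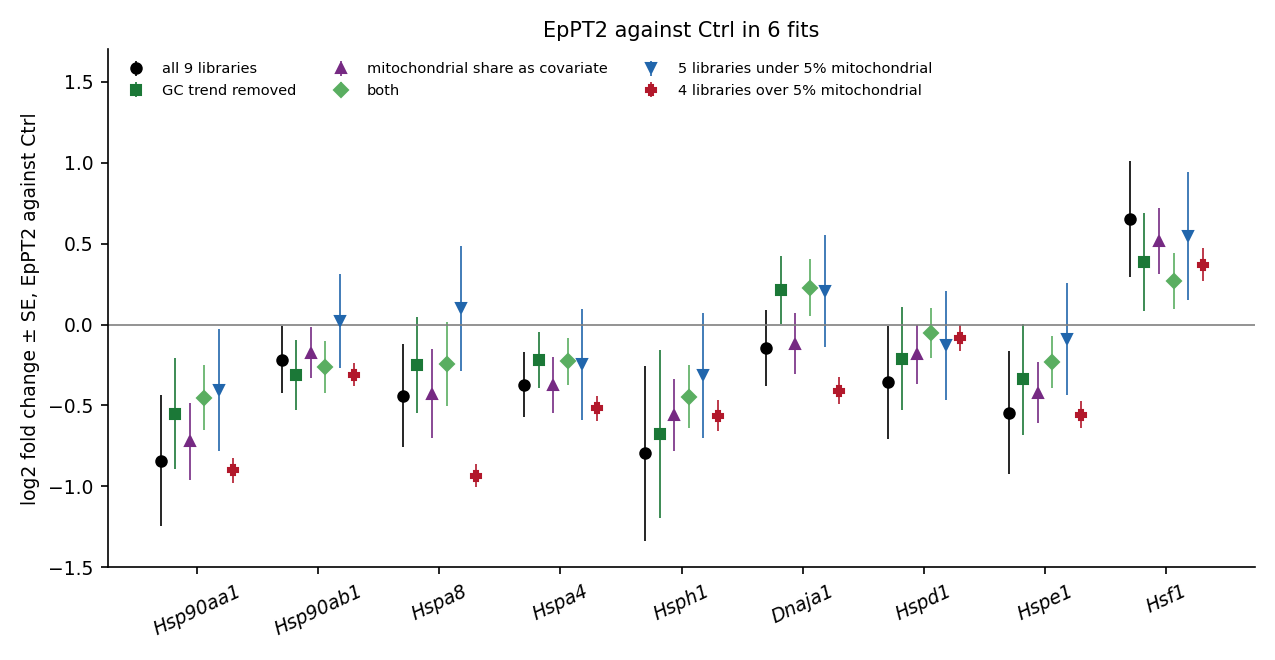
Log2 fold change ± SE in EpPT2 against Ctrl for the 9 tested members under 6 fits. Hsp90aa1, Hsph1, Hspa4, Hspd1 and Hspe1 stay below 0 and Hsf1 above 0 in all 6. Hspa8, Hsp90ab1 and Dnaja1 lie on both sides of 0. The small errors of the 4-library fit rest on EpPT2 2 and EpPT2 3 alone, the closest pair of libraries, with 1 residual degree of freedom.

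The wider chaperone network was read from 9 lists of 131 different genes beyond the members, of which 120 were tested. None was called by edgeR in any of the 3 comparisons. In EpPT2 against Ctrl, 50 were fitted above and 70 below 0 with a median of -0.15; 52.1% of all genes were below 0, with a median of -0.03. An unadjusted edgeR p under 0.05 was found for 17 of the 120, near the 12.2% of all genes, with a lowest adjusted p of 0.376. In EpPT1 against Ctrl there were 54 above and 66 below with a median of -0.04, and 5 had an unadjusted p under 0.05 (3.93% of all genes). In EpPT2 against EpPT1 there were 49 above and 71 below with a median of -0.05, and 0 had one (0.214% of all genes). Over all genes, 52.0% were below 0 in EpPT1 against Ctrl and 51.7% in EpPT2 against EpPT1.

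Other genes that HSF1 induces lay on both sides of 0. Of 17 tested genes in that list, 11 were above and 6 below 0 in EpPT2 against Ctrl, with a median of 0.12. The 2 inducible HSP70 genes, Hspa1a and Hspa1b, had at most 1 and 2 counts in any library; they are near-identical copies whose reads can be lost or split in counting, so their level is uncertain. Dnajb1, the J-domain partner of inducible HSP70, was fitted at 0.04 (SE 0.21), and Bag3, which links HSP70 to autophagy, at 0.15 (SE 0.31). Among small heat shock proteins, 4 of 5 tested were above 0, including Hspb8 at 0.36 (SE 0.22), from 215 ± 25.6 CPM in Ctrl to 276 ± 38.6 CPM in EpPT2, and Cryab at 0.26 (SE 0.19). Both were far more abundant than Hspb1.

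Of 9 other tested genes of the Hsp70 and Hsp110 families, 4 were above and 5 below 0 in EpPT2 against Ctrl. This split was near that of all genes, and the median was -0.31. The members Hspa8, Hspa4 and Hsph1, not counted there, were all below 0 (-0.44, -0.37 and -0.79). Hspa9, the mitochondrial HSP70, was at -0.31 (SE 0.24), Hspa5 at -0.64 (SE 0.66) and Hspa4l, an HSP110, at -0.48 (SE 0.26). J-domain genes other than Dnaja1 divided 12 above and 23 below (median -0.18). Nucleotide exchange factors other than Hspa4 and Hsph1 divided 6 and 6 (median 0.02), with the mitochondrial Grpel1 at -0.33 (SE 0.27).

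Hsp90 co-chaperones divided 8 above and 14 below (median -0.11). St13, which encodes the HSP70-binding protein Hip, was at -0.74 (SE 0.28; unadjusted p 0.0247, adjusted 0.376 by edgeR) and Ptges3, the co-chaperone p23, at -0.42 (SE 0.25). Stip1, which bridges HSP70 and HSP90, was at 0.02 (SE 0.20), Ahsa1, the activator of the HSP90 ATPase, at 0.12 (SE 0.59), and the ubiquitin ligase gene Stub1 at 0.10 (SE 0.20). The HSP90 genes of the endoplasmic reticulum, Hsp90b1, and of mitochondria, Trap1, were at -0.22 (SE 0.34) and -0.28 (SE 0.43).

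The cytosolic chaperonin TRiC and its partner prefoldin had 5 genes above and 9 below 0 (median -0.34), with Tcp1, a TRiC subunit, at -0.64 (SE 0.28; unadjusted p 0.0436, adjusted 0.399 by edgeR). Mitochondrial folding and quality control genes other than Hspd1 and Hspe1 divided 4 above and 9 below (median -0.28). Among HSF factors other than Hsf1 and HSF1 regulators, 4 were above and 7 below (median -0.15). Hsbp1, whose product binds the HSF1 trimer, was at -0.59 (SE 0.22; unadjusted p 0.0244, adjusted 0.376 by edgeR), and Hsf2 at -0.41 (SE 0.39).

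Across the 9 libraries the 9 tested members differed in how much they varied. The root mean square deviation of log2 CPM from the gene's mean was 0.77 for Hsph1, 0.59 for Hsp90aa1, 0.51 for Hspe1, 0.49 for Hsf1, 0.43 for Hspd1, 0.40 for Hspa8, 0.22 for Dnaja1, 0.20 for Hspa4 and 0.19 for Hsp90ab1, against a median of 0.44 over all tested genes. The closest pairs of members by root mean square difference were Hsp90ab1 with Dnaja1 (0.12) and Hsp90ab1 with Hspa4 (0.16), and the farthest was Hsph1 with Hsf1 (1.22). Among 9575 genes compared, those nearest in pattern to Hsph1 were Wdr12 (0.08), Cpped1 (0.11), Fermt2 (0.11) and Ets2 (0.12). Nearest to Hsp90aa1 were Ddias (0.09), Rnf2 (0.12), Pno1 (0.12) and Larp4 (0.13), and nearest to Hsf1 were Cxxc1 (0.09), Plxna1 (0.09), Stab1 (0.10) and Upf3a (0.10). These distances cover the same 9 libraries, which share the differences in mitochondrial share and GC trend given above.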

How the data were processed

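RNA-seq counts of 9 HC11 libraries were analysed. The deposited table holds whole-number counts per gene and gene lengths, per the file headers; the authors used Bowtie 0.12.2 and the build mm8, per the submitters' processing notes, while the table's coordinates are those of GRCm38 (98.3% of the shared gene IDs, and 10 of 10 members, have the start and end of GENCODE M21). No source used here names the counting tool or its strand setting. Genes were tested with edgeR 4.0.16 in R 4.3.3 (filterByExpr, TMM scaling, quasi-likelihood test), in 1 fit of all 9 libraries with 6 residual degrees of freedom, with Benjamini-Hochberg adjustment over 14471 genes and a threshold of 0.05. Levels are CPM, and levels between genes are CPM per kb of the deposited length. Other scalings and filters, DESeq2 1.42.0, covariates and left-out libraries were alternatives. Scripts were tested on simulated data. No pair of libraries was alike within counting noise (chi-square per gene at least 5.93, for EpPT2 2 with EpPT2 3). Some pairs from different groups were close: EpPT1 2 with EpPT2 1 (6.88), EpPT1 3 with EpPT2 2 (9.69) and EpPT1 3 with EpPT2 3 (11.6). Ctrl 2 with EpPT1 1 was at 19.0. All other pairs within a group lay between 67.2 (Ctrl 1 with Ctrl 2) and 212 (Ctrl 1 with Ctrl 3). The members and lists were chosen with earlier results of these data known. All 10 members are named, with 20 list genes named whatever their values, any list gene passing the test, and the 4 genes of at least 5 CPM nearest in pattern to Hsph1, Hsp90aa1 and Hsf1.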

Additional observations from a re-analysis of the deposited data

How the results depend on the processing

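No member passed the adjusted threshold in 58 of 60 alternative counts. The exceptions were the 8 and 8 members called in the 4 libraries over 5% mitochondrial counts, an alternative chosen after seeing the data; its small spread rests on 1 residual degree of freedom. Of 297 member fold changes under other settings 23 turned in sign, and of 243 with 1 library left out 13 did. For EpPT1 against Ctrl, Hspd1 turned from 0.0048 to -0.0695 with the mitochondrial covariate and to -0.19 in the libraries over 5%. In the libraries under 5%, Hsp90ab1 turned to 0.046, Hspa8 to 0.11 and Dnaja1 to 0.21. Dnaja1 was also 0.0055 without the filter, 0.26 with the GC trend removed, 0.24 with GC and mitochondrial share together and 0.25 with GC and the replicate block. For EpPT2 against Ctrl, the libraries under 5% gave 0.0204 for Hsp90ab1, 0.10 for Hspa8 and 0.21 for Dnaja1, and Dnaja1 was 0.21 with the GC trend removed, 0.23 with GC and mitochondrial share and 0.21 with GC and the replicate block. For EpPT2 against EpPT1, the libraries over 5% gave 0.072 for Hsph1, 0.10 for Hspd1, 0.13 for Hsp90aa1, 0.0605 for Hsp90ab1, 0.0511 for Hspa8, 0.0408 for Dnaja1 and -0.13 for Hsf1. The cause was not tested. With 1 library left out, values of EpPT1 against Ctrl ran from -0.15 to 0.14 for Dnaja1, -0.20 to 0.0497 for Hsp90ab1, -0.27 to 0.27 for Hspd1, -0.36 to 0.12 for Hspe1 and -0.43 to 0.31 for Hsph1, and Dnaja1 in EpPT2 against EpPT1 ran from -0.31 to 0.0088.

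Whether the replicate numbers of the labels pair the libraries is unclear. Correlations of same-numbered libraries' deviations ran from -0.64 (EpPT1 2 with EpPT2 2) to 0.73 (Ctrl 1 with EpPT2 1). Those of different-numbered libraries ran from -0.77 to 0.75. Pairs numbered 3 were at 0.63 to 0.73, but Ctrl 3, EpPT1 3 and EpPT2 3 all had over 5% mitochondrial counts. With a replicate block 0 members and 0 of all 14471 genes were called, and Hspd1 in EpPT1 against Ctrl was -0.0103. The unadjusted edgeR p in EpPT2 against Ctrl was then under 0.05 for 4 members (Hsp90aa1, Hspe1, Hsph1 and Hsf1, lowest adjusted p 0.1198). It was so for 3056 genes, against 1763 without the block. With 3 libraries a group and a biological coefficient of variation of 39.3%, changes of these genes could be missed, and not only small ones. In EpPT2 against Ctrl, Hsp90aa1 was fitted 1.79-fold lower with an edgeR adjusted p of 0.416. Hsph1 was fitted 1.735-fold lower there with an edgeR adjusted p of 0.528. Hspb1 is limited by its counts.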
